A study of Mus musculus with 8 samples.

Results

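The non-clustered protocadherins described here are 8 genes, Pcdh7, Pcdh8, Pcdh9, Pcdh10, Pcdh15, Pcdh17, Pcdh18 and Pcdh20, taken by symbol from the 33696 genes counted in nuclei of the adult mouse optic nerve (ON). Protocadherins are single-pass membrane proteins of the cadherin superfamily that bind neighbouring cells through stacked extracellular cadherin domains, mostly to a protein of their own kind, and pass signals through cytoplasmic tails that differ between subfamilies. Unlike the clustered protocadherins, which lie in gene arrays, these genes are scattered over several chromosomes. Pcdh7 and Pcdh9 belong to the delta-1 group and Pcdh8, Pcdh10, Pcdh17 and Pcdh18 to the delta-2 group, several of whose tails recruit the actin-regulating WAVE complex. Pcdh15 is best known from the tip link of inner ear hair cells and is also used as a marker of oligodendrocyte precursor cells (OPCs).

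Single-nucleus RNA-seq was performed on ONs of female mice at postnatal day 120. The 4 control libraries came from Piezo2f/f mice, which carry loxP-flanked Piezo2 alleles and no Cre. The 4 libraries labelled cKO came from Olig2-cre;Piezo2f/f mice, in which Cre is driven from the Olig2 locus, so these animals are heterozygous for Olig2, per the study, and Olig2 is used by oligodendrocyte (OL) lineage cells and by some other neural progenitors. Every library pooled 6 nerves, so differences between animals within a pool were not seen. The question put to the 8 genes was in which cell types they were found, how they changed along the OL lineage, and whether they differed between the genotypes.

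The libraries held 39628926 to 56541132 unique molecular identifiers (UMIs, 1 per captured RNA molecule) and gave 3487 to 6216 nuclei each after filtering, 37247 in all, with a median of 2384 to 3314 UMIs per nucleus. Clusters were named from marker genes, which gave 10 cell types. In control nuclei every marker of each of these types was highest in the type it names. The same markers gave the names, so this is no separate check of them. OLs (18405 nuclei) and astrocytes (8189) were the most frequent, followed by fibroblasts (3697), myeloid cells (1661), OPCs (883), endothelial cells (438), neurons (387), T cells (141), committed OPCs (126) and mural cells (82), and 8.69% of nuclei were left unnamed. The study considers its own neuron cluster to be likely contamination by neighbouring brain tissue. Of the 232 control neuron nuclei here, 131 came from control replicate 3. Piezo2 in OLs was 450 ± 58.7 CPM (UMIs of a gene in the summed nuclei, scaled to a fixed total; mean ± SD, n = 4) in control and 542 ± 22.1 CPM (n = 4) in the libraries labelled cKO, so the count did not fall (log2 fold change 0.25 ± 0.11 SE, edgeR adjusted p = 0.541). The deletion removes a few exons of Piezo2, per the study's methods, and whether the counted 3′ reads lie in them was not examined, so this count may not see it. The Olig2 count was not lower in the libraries labelled cKO either, at 47.0 ± 3.51 CPM in OLs against 30.5 ± 7.37 CPM in control and 254 ± 73.5 CPM in OPCs against 153 ± 43.2 CPM (n = 4 each). Olig2 was not called in either type (0.61 ± 0.15, adjusted p = 0.212, and 0.72 ± 0.21, 0.514), though it was with no filter on low counts in both (0.0350 and 0.0473) and with DESeq2 (0.0481) or without control replicate 3 (0.0371) in OLs. In control replicate 3, 54.1% of OL nuclei fell in 1 subcluster led by the pituitary hormone genes Pomc, Avp, Gh and Prl, against 0 to 4.38% in the other 7 libraries. The pituitary markers summed over a cell type came, in its 10 named types, to 603 to 3219 CPM against at most 315 CPM in any named type of the other libraries.

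In the mouse genome (GRCm39, GENCODE annotation), Pcdh9 lies at chr14:93250846-94128152 on the minus strand, Pcdh17 at chr14:84680965-84776442 on the plus strand, Pcdh20 at chr14:88694835-88708832 and Pcdh8 at chr14:80004215-80008752, both on the minus strand. Pcdh7 lies at chr5:57875004-58290581, Pcdh15 at chr10:72935174-74485569 and Pcdh10 at chr3:45332833-45390058, all on the plus strand, and Pcdh18 at chr3:49697731-49711830 on the minus strand. Their spans ranged from 4.5 kb for Pcdh8 to 1550.4 kb for Pcdh15. Nuclear RNA carries introns, so a longer gene can yield more UMIs, and levels are therefore compared between cells and not between genes. The 250 bases before the annotated start of the 4 genes that moved most along the OL lineage are shown here, 5′ to 3′ on the gene's own strand, with CG dinucleotides in capitals, because from OPCs to committed OPCs Pcdh7 and Pcdh17 rose while Pcdh15 and Pcdh10 fell.
Pcdh7, chr5:57874754-57875003, plus strand: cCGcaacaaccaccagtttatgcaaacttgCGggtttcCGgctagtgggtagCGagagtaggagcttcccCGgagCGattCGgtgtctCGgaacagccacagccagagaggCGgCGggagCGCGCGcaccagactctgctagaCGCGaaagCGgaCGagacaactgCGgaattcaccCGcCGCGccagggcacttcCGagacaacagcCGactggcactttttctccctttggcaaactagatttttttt
Pcdh17, chr14:84680715-84680964, plus strand: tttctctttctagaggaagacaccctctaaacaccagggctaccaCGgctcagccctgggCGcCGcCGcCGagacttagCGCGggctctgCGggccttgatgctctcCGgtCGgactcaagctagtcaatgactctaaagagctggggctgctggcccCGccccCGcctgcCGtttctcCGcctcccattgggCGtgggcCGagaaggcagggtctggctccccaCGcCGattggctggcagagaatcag
Pcdh15, chr10:72934924-72935173, plus strand: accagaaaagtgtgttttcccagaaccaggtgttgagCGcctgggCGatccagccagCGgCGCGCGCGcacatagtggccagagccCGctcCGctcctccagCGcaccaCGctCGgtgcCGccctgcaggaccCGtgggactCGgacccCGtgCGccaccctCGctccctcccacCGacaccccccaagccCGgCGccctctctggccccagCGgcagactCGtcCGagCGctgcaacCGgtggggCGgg
Pcdh10, chr3:45332583-45332832, plus strand: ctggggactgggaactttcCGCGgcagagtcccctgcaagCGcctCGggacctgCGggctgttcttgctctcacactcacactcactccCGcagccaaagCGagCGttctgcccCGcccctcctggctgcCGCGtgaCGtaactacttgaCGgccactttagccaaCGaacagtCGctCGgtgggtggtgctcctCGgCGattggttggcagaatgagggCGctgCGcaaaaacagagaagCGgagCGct
All 4 windows were rich in CG dinucleotides, with 23 in that of Pcdh7, 18 in Pcdh17, 27 in Pcdh15 and 22 in Pcdh10, where the median over 21757 such windows of protein-coding genes was 6. Such windows were not particular to these 4 members, as those of Pcdh9 and Pcdh18 held 21 each, that of Pcdh8 11 and that of Pcdh20 3. RefSeq places the start of Pcdh15 elsewhere, so its window and span hold for the GENCODE start alone. The window of Pcdh7 overlaps exons of the gene 4932441J04Rik, and that of Pcdh10 exons of 2610316D01Rik. None of the 4 windows, read on both strands, held the E-box forms CAGCTG (in 12.0% of all windows) or CATATG (3.20%) or the SOX core ACAAAG (17.1%), which says only that these letters are not in these bases.

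Of the 8 genes, 5 (Pcdh7, Pcdh9, Pcdh10, Pcdh15 and Pcdh17) were high enough to be tested between 8 cell types of the control nerve. Committed OPCs and mural cells, with sums in 2 control libraries each, were not among these types. In control committed OPCs, mean Pcdh7 (2333 against 936 CPM) and Pcdh17 (1145 against 206 CPM) lay above control OPCs. All 5 genes were higher in OPCs than in the mean of the other types compared, where 18.2% of all genes tested were. Pcdh15 and Pcdh17 stood highest above the rest there, and Pcdh9 was the single one of the 5 whose level was higher in OLs than in OPCs. Fibroblasts were above the mean of the other types in Pcdh7 and below it in the other 4. Pcdh8, Pcdh18 and Pcdh20 were close to the limit of detection in nearly every type.

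**Figure D1:**
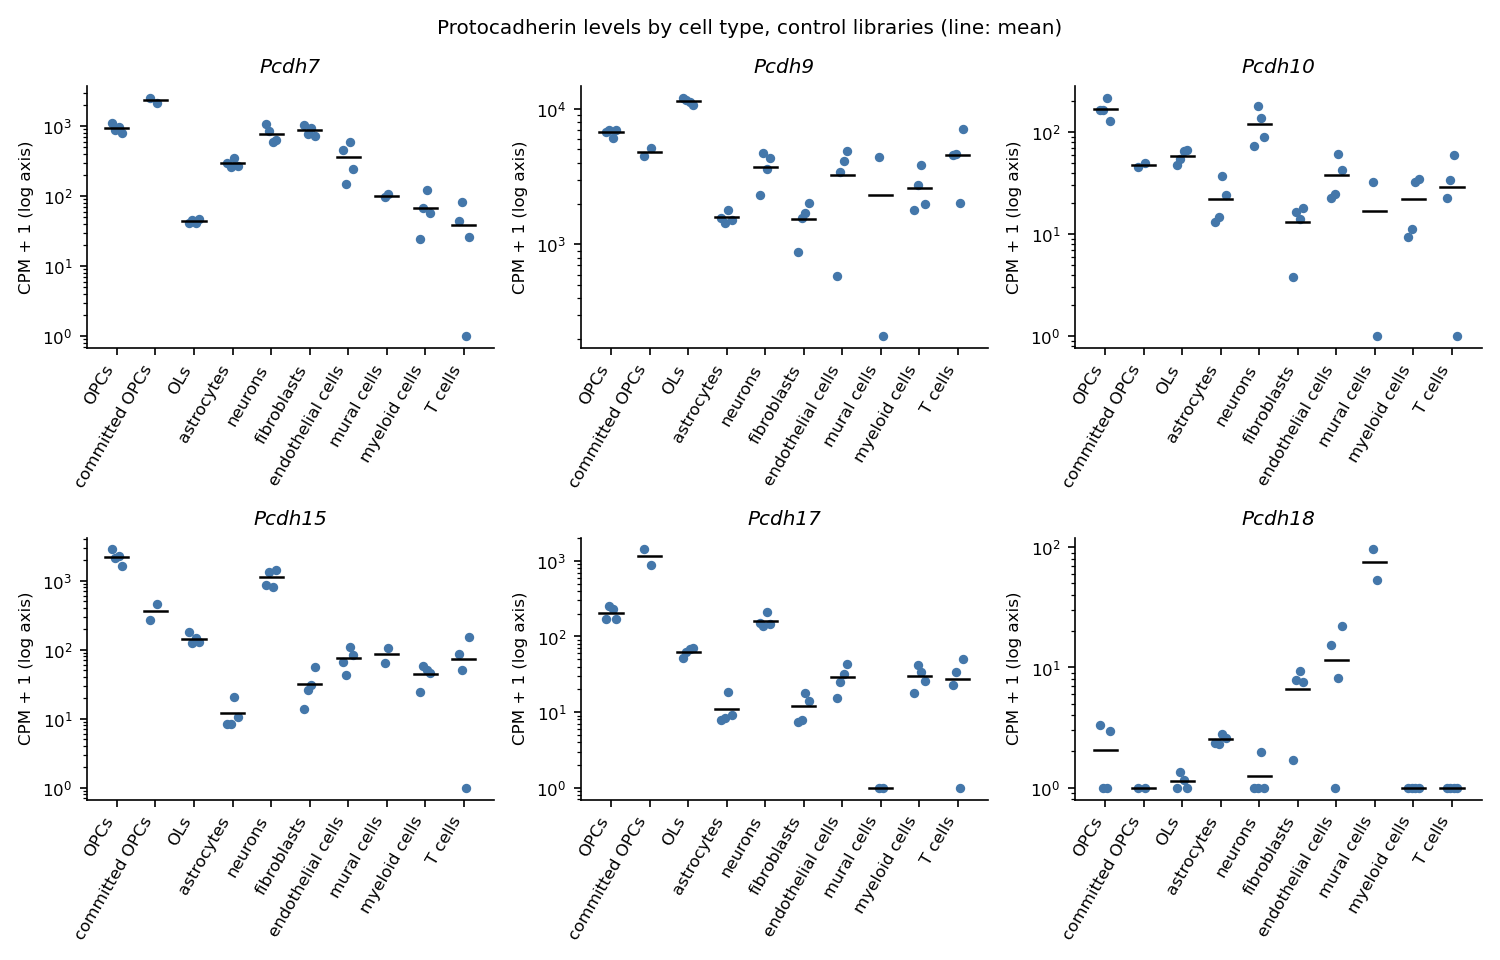
Levels of 6 protocadherins (CPM + 1, log axis, on the vertical axis) in the 10 named cell types of the control ON, each point the summed nuclei of a library and each line the mean. Pcdh9 sits above 10000 CPM in the 4 OL sums, Pcdh15 above 1600 CPM in the 4 OPC sums, and Pcdh18 is highest in the 2 mural cell sums.

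Pcdh15 was at 2828, 2101, 2266 and 1649 CPM in the OPCs of control libraries 1 to 4. It was at 873, 1318, 815 and 1428 CPM in their neurons and at 177, 122, 148 and 128 CPM in their OLs. The OPC, neuron and OL levels did not overlap, and astrocytes lay lowest among the glia, between 7.24 and 19.4 CPM. In OPCs, 98.5% of nuclei carried a Pcdh15 UMI (87.6% after thinning every nucleus to 1000 UMIs) against 2.66% (0.832%) of astrocyte nuclei, at median depths of 3820 and 3014 UMIs. Against the mean of the other types, Pcdh15 was higher in OPCs by 5.13 ± 0.18 (log2 fold change ± SE, adjusted p = 9.38e-25) and in neurons by 3.86 ± 0.19 (6.47e-20). The 0.70 ± 0.22 in OLs (0.00812) was lost when control replicate 1 was left out (0.49, adjusted p = 0.0777) and with DESeq2 (0.44, 0.151).

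Pcdh9, which is expressed widely in brain neurons, was at 11974, 11496, 11219 and 10661 CPM in control OLs. In OPCs it was at 6682, 6932, 6093 and 7010 CPM, so that every OL sum was above every OPC sum. It was found in 99.9% of OL nuclei, and in 99.7% after thinning. Set against that same mean, Pcdh9 was higher by 2.21 ± 0.23 in OLs (1.02e-10) and 1.27 ± 0.25 in OPCs (7.26e-05), while astrocytes (-1.24) and fibroblasts (-1.41) were below it.

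RNA of broken cells reached all droplets, and Pcdh9 was part of it: empty droplets held 1152 to 1459 CPM of Pcdh9 in the control libraries. Within myeloid cells, subclusters 0 to 3, 5 and 6 had a mean of 227 to 362 CPM of Pcdh9. Myeloid subcluster 4 had 7411 ± 1489 CPM (n = 7), and its 7 OL markers summed to 10706 CPM against 3097 to 6628 CPM in those others. In fibroblasts, subcluster 7 had 5765 ± 796 CPM of Pcdh9 with 8836 CPM of OL markers, though subcluster 6 had 610 ± 313 CPM of Pcdh9 with 7776 CPM of OL markers. The part of OL RNA in the Pcdh9 level of these subclusters was not tested.

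Pcdh7, whose tail binds protein phosphatase 1, was at 1115, 872, 965 and 792 CPM in control OPCs. It reached 1045, 776, 938 and 726 CPM in fibroblasts and 1072, 839, 585 and 623 CPM in neurons, and these 3 types overlapped. In OLs it was at 40.7, 44.3, 40.2 and 46.4 CPM, under the 56.1 to 101 CPM of the empty droplets. Of OL nuclei, 7.72% carried a Pcdh7 UMI (3.42% thinned), close to the 6.53% (2.07%) of myeloid nuclei, a type in which Pcdh7 was under the level of the empty droplets in 2 of 4 control libraries, at median depths of 2841 and 2120 UMIs. With the estimated free RNA subtracted, control OLs kept 35.0 ± 4.64 CPM (n = 4).

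Pcdh7 was above the mean of the other types in OPCs (2.52 ± 0.20, adjusted p = 1.59e-13), fibroblasts (2.15 ± 0.20, 9.96e-12) and neurons (2.09 ± 0.21, 8.20e-11). It was below that mean in OLs (-2.50 ± 0.30, 2.97e-09), myeloid cells (-2.10) and T cells (-3.30). Astrocytes had 295, 258, 355 and 268 CPM and did not pass the test (0.48, 0.0858), but did with the estimated free RNA subtracted (0.69, 0.0465). Endothelial cells spread from 148 to 585 CPM and did not pass either (0.65, 0.0633), though without control replicate 2 they did (1.00, 0.0169).

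Pcdh10 and Pcdh17, both of the delta-2 group, were higher in OPCs and neurons than in OLs. Pcdh17 was at 172, 252, 232 and 168 CPM in control OPCs, at 150, 137, 207 and 144 CPM in neurons and at 51.1, 60.5, 66.8 and 69.2 CPM in OLs. Pcdh10 was at 162, 163, 215 and 129 CPM in OPCs, at 71.5, 178, 137 and 89.5 CPM in neurons and at 46.2, 53.3, 64.7 and 66.0 CPM in OLs. OPCs and neurons overlapped for both genes, and all OL sums were lower than either. Both genes were higher than the mean of the other types in OPCs (Pcdh17 2.96 ± 0.18, Pcdh10 2.57 ± 0.24), neurons (2.51 and 1.90) and OLs (1.07 and 0.88), and lower in fibroblasts (-1.99 and -1.98) and astrocytes (-2.26 and -1.06). For Pcdh10, the astrocyte call and a call in myeloid cells (-1.11) were lost with free RNA subtracted (adjusted p = 0.172 and 0.0838).

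Read against all 12276 genes tested, of which 25.4% were called in OPCs, 36.9% in neurons, 41.3% in OLs, 34.1% in fibroblasts, 39.9% in astrocytes, 31.6% in myeloid cells, 10.3% in T cells and 18.0% in endothelial cells, the 5 genes were called in 5, 4, 5, 5, 4, 3, 1 and 0 cases in that order. The median of all genes lay within 0.09 of 0 in each of these comparisons except T cells, where it was -0.41. With DESeq2 scaling the medians moved to -0.44 in OLs and 0.38 in T cells. The direction of the called differences above did not turn under either scaling.

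Pcdh8, known as arcadlin and induced by activity at synapses, gave 14 UMIs in the 232 control neuron nuclei, or 7.79 CPM, and 22 UMIs among 7714 OL nuclei (0.944 CPM). Control fibroblasts gave none, which at 3 counts allows up to 0.419 CPM for the summed nuclei. Pcdh20 gave 20 UMIs in control OPCs (0, 9.6, 18.4 and 15.6 CPM by library) and 17 UMIs in neurons (9.45 CPM). Pcdh18, which binds the adaptor Disabled-1, gave 7 UMIs in control mural cells, 88.5 CPM where 3 counts would be 37.9 CPM, and was at 9.18 CPM in endothelial cells and 6.15 CPM in fibroblasts. These genes were too low for edgeR's filter in the 8 types compared, and no member of the 3 was tested by it between cell types. Mural cells, where Pcdh18 was highest, had sums in 2 control libraries and were not among the types compared.

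The genes most like each member over the mean levels of the 10 types, by Pearson's r on 8883 genes, share its libraries and depth and carry no test. They were Cadm2 (r = 0.97) and 9630013A20Rik (0.95) for Pcdh17, Rims1 (0.96) and Sorcs3 (0.94) for Pcdh15, Pcdh11x (0.95) for Pcdh10, Bend7 (0.94) for Pcdh7, Aldh1l2 (0.95) and Txndc16 (0.94) for Pcdh9, and Kcne4 (0.98) and Gja4 (0.97) for Pcdh18. Pcdh11x is itself a delta-1 protocadherin. 9630013A20Rik is a long non-coding RNA gene at chr14:84696079-84713864 on the minus strand, wholly inside Pcdh17 on the opposite strand. Whether the counting used strand is not given in the sources used here, so reads in these 17786 bases may have been assigned to either gene. The same limit holds for Pcdh7, Pcdh8, Pcdh10 and Pcdh15, which counted genes also overlap on the opposite strand. For Pcdh10 (5000 UMIs in the named types) these were 2610316D01Rik (3187) and 1700027H10Rik (439). For Pcdh15 (19229 UMIs) it was Gm15398 (4305).

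Along the OL lineage, the 5 genes took different courses between OPCs, committed OPCs and OLs. Committed OPCs are cells that have left the precursor state and do not yet make compact myelin, marked here by Gpr17, Bmp4, Enpp6 and others. Pcdh7 and Pcdh17 rose from OPCs to committed OPCs and fell steeply in OLs, Pcdh15 and Pcdh10 fell at the first step, and Pcdh9 fell slightly and then rose. Committed OPCs were few, and only control replicates 1 and 3 and the 4 libraries labelled cKO had at least 10 of them.

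**Figure D2:**
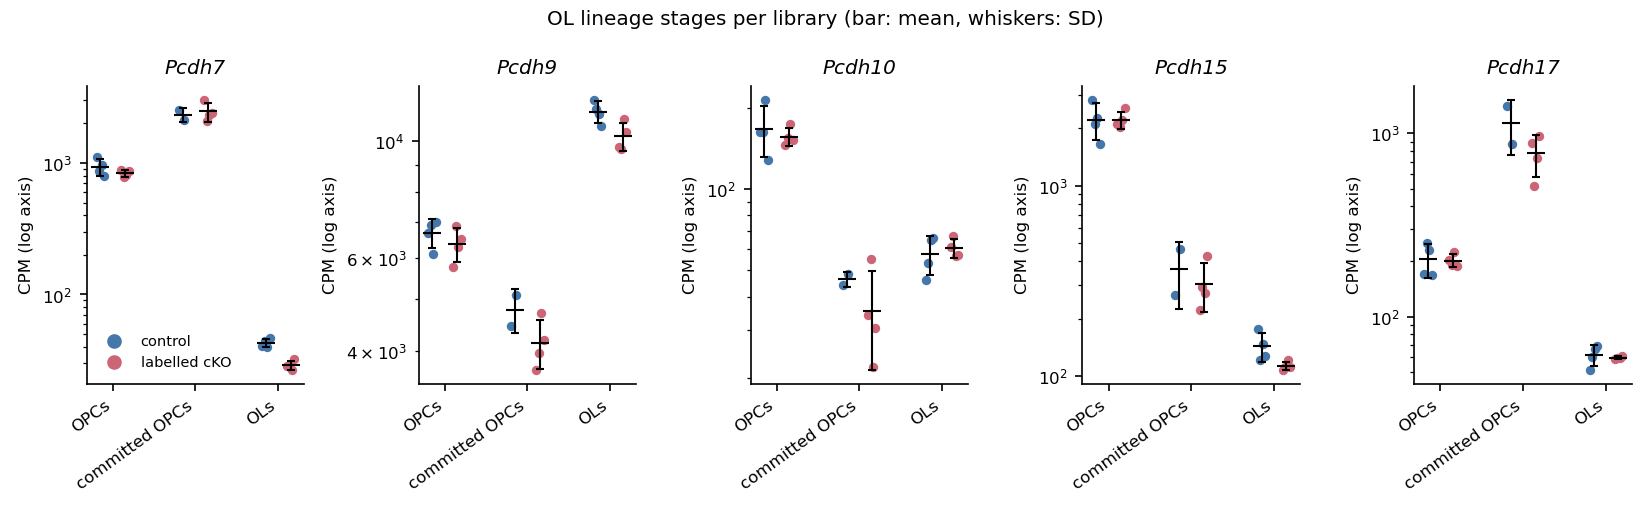
Levels (CPM, log axis) of the 5 tested protocadherins in OPCs, committed OPCs and OLs, each point a library sum coloured by genotype, with bars for the mean and whiskers for the SD. Pcdh7 and Pcdh17 peak in committed OPCs, where Pcdh7 lies between 2080 and 3041 CPM, and Pcdh15 drops from above 1600 CPM to below 465 CPM.

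Pcdh7 was at 2524 and 2142 CPM in the committed OPCs of the 2 control libraries and, in those labelled cKO, at 3041, 2080, 2336 and 2417 CPM. In OPCs of the libraries labelled cKO it was at 888, 783, 813 and 874 CPM, and in their OLs at 28.7, 28.6, 26.6 and 32.2 CPM. The 3 stages did not overlap. With both genotypes in the model, Pcdh7 rose by 1.41 ± 0.12 (log2 fold change ± SE) from OPCs to committed OPCs (adjusted p = 1.36e-11) and was lower by -6.10 ± 0.13 in OLs (5.45e-28). In committed OPCs 100% of control nuclei had a Pcdh7 UMI (83.0% thinned) against 93.0% (59.1%) of OPCs.

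Pcdh17 was at 1417 and 874 CPM in control committed OPCs and, in those labelled cKO, at 888, 519, 735 and 969 CPM. All 6 values lay above the 168 to 252 CPM of OPCs in the 8 libraries and the 51.1 to 69.2 CPM of OLs. Its rise to committed OPCs was 2.05 ± 0.15 (2.60e-13) and its difference from there to OLs was -3.83 ± 0.14 (1.22e-21). The overlapping 9630013A20Rik followed it, with 76.2 ± 22.3 CPM in control OPCs (n = 4), 1190 ± 6.97 CPM in control committed OPCs (n = 2) and 18.3 ± 2.59 CPM in control OLs (n = 4). A share of Pcdh17 reads from this gene, or the reverse, was not tested.

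Pcdh15 was at 266 and 464 CPM in control committed OPCs and, in those labelled cKO, at 222, 292, 274 and 428 CPM. In OPCs of the libraries labelled cKO it was at 2107, 2023, 2198 and 2538 CPM, several times higher in every library that had both. It fell by 2.78 on the log2 scale (SE 0.17, adjusted p = 6.59e-15) from OPCs to committed OPCs and by a further 1.39 (SE 0.18, 5.89e-08) to OLs. The share of control nuclei with a UMI went from 98.5% of OPCs to 61.9% of committed OPCs and 25.3% of OLs, or 87.6%, 28.5% and 11.7% after thinning.

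Pcdh10 was at 44.3 and 48.5 CPM in control committed OPCs and, in those labelled cKO, at 34.2, 55.2, 21.9 and 30.6 CPM, on 2 to 10 UMIs per sum. It fell by 2.02 on the log2 scale (SE 0.24, adjusted p = 1.88e-08) from OPCs and did not pass the test from committed OPCs to OLs (0.52 ± 0.26, 0.120). The committed OPC levels lay in the range of the empty droplets, 41.1 to 56.9 CPM over both genotypes, or under it. Pcdh9 was at 4457 and 5110 CPM in control committed OPCs and, in those labelled cKO, at 3673, 3950, 4716 and 4191 CPM, below every OPC and OL sum. Its fall of 0.64 (SE 0.12, 5.08e-05) was lost in the control libraries alone (-0.54, 0.0790), and it then rose by 1.31 ± 0.12 to OLs (2.94e-11).

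Of 9080 genes tested, 22.8% were called between committed OPCs and OPCs, 33.9% between OLs and committed OPCs and 45.6% between OLs and OPCs, and of the 5 members 5, 4 and 5 were called. From OPCs to OLs in 1 step, Pcdh7 (-4.69 ± 0.12), Pcdh15 (-4.16 ± 0.14), Pcdh17 (-1.79 ± 0.13) and Pcdh10 (-1.50 ± 0.11) were lower and Pcdh9 (0.68 ± 0.10) was higher. DESeq2 moved the median of all genes from 0.06 to -0.34 between committed OPCs and OLs and from 0.03 to -0.21 between OPCs and OLs. The directions of the 5 genes were the same with it.

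Genes of related function were followed by list. Of the other non-clustered protocadherins, Pcdh1, Pcdh11x and Pcdh19 were tested and all 3 were higher in OPCs than in the mean of other types (median 2.21, median of all genes 0.04, 18.2% of all genes called higher). Between committed OPCs and OPCs Pcdh11x was lower (-1.29 ± 0.17), while Pcdh19, a delta-2 gene, was at 0.97 ± 0.54 and did not pass (adjusted p = 0.230). All 3 were lower in OLs than in OPCs (median -1.68, all genes 0.03, 45.6% of all genes called).

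Of the 9 WAVE complex genes tested, which act on branched actin and are partners of delta-2 tails, 3 rose in committed OPCs over OPCs and none fell, with Cyfip2 (1.90 ± 0.16), Wasf1 (1.78 ± 0.15) and Abi1 (1.49 ± 0.15). The list's median there was 0.06 where all genes had -0.08, and 22.8% of all genes were called. From committed OPCs to OLs, where 33.9% of all genes were called, 4 of 9 were lower and none higher, among them Cyfip2 (-2.75 ± 0.15) and Wasf1 (-2.23 ± 0.14). Of 7 catenins, which link classical cadherins to actin, 1 rose and 4 fell from OPCs to committed OPCs (22.8% of all genes called), Ctnnd2 the most (-3.10 ± 0.17).

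Of 10 classical and type II cadherins tested along the lineage, 2 rose and 5 fell in committed OPCs, where 22.8% of all genes were called, with Cdh18 at -1.87 ± 0.24 and Cdh8 at -3.36 ± 0.46 (list median -0.41). Fat3, of the large atypical cadherins, fell by 1.98 (SE 0.22) there and 1 further gene of that list was tested without a call. Of the 10 partners of Pcdh15 at tip links, 2 were tested between cell types, and neither was called in OPCs (25.4% of all genes called). Cdh23, which forms the link together with Pcdh15, was lower in OLs (-3.53 ± 0.32, 41.3% of all genes called), and both Cdh23 (4.50 ± 0.18) and Whrn (2.97 ± 0.29) were higher in myeloid cells (31.6% called).

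Within OLs, Pcdh7 was concentrated in 1 subcluster, OLs 1, whose leading genes were Kit, Synpr, Kirrel3 and Nav3 beside Pcdh7 itself, which was not used to form the clusters. There Pcdh7 was at 119, 134, 169 and 148 CPM in the control libraries, all above the empty droplets, and its mean over 8 libraries was 119 ± 28.7 CPM. The other 8 OL subclusters had means of 10.9 to 29.5 CPM. Pcdh15 was also highest in OLs 1, at 279 ± 44.0 CPM (n = 8), and lowest in OLs 0, at 33.9 ± 5.10 CPM (n = 8), with 70.5 to 188 CPM elsewhere. Pcdh17 had the same ends, 90.9 ± 13.8 CPM in OLs 1 and 32.6 ± 5.71 CPM in OLs 0. These are descriptions of clusters made from the same nuclei and have no test.

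**Figure D3:**
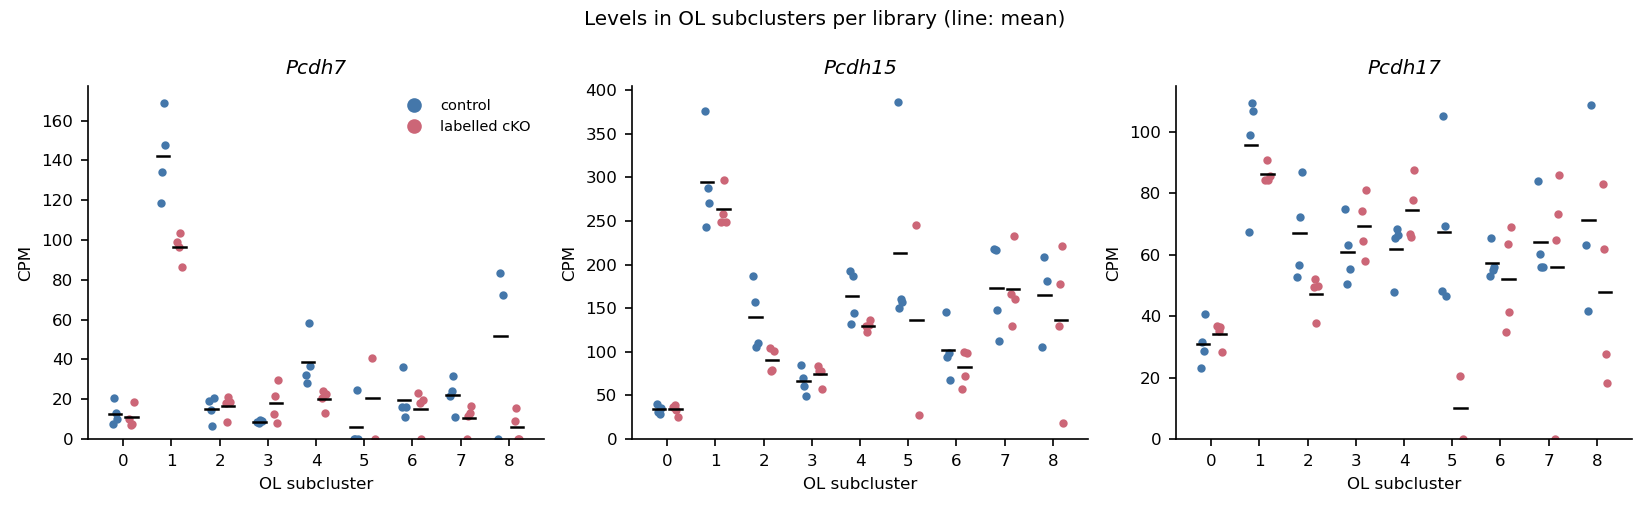
Levels (CPM) of Pcdh7, Pcdh15 and Pcdh17 in the 9 OL subclusters (horizontal axis), each point a library coloured by genotype and each line the mean of a genotype. Pcdh7 lies between 86.3 and 169 CPM in every library of OLs 1, above the 83.5 CPM that is the highest value in any other subcluster, and Pcdh15 is lowest in OLs 0.

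OLs were also ordered by a maturation score that uses none of the 8 genes, the mean log level of Trf, Apod and Klk6 (mature OLs) minus that of Mbp, Mog and Mal (myelin-forming OLs), and the upper tercile of each control library was compared with the lower tercile. Pcdh7 and Pcdh15 were lower in the upper tercile. Pcdh7 was at 56.7, 59.3, 59.9 and 68.8 CPM in the lower tercile and at 21.1, 33.1, 16.6 and 27.2 CPM in the upper. Pcdh15 was at 244, 158, 195 and 169 CPM in the lower tercile and at 116, 91.1, 90.2 and 91.7 CPM in the upper. Neither gene's terciles overlapped. Markers of neurons (means of 97.3 against 67.1 CPM), fibroblasts (295 against 261 CPM) and astrocytes (546 against 492 CPM) were higher in the upper tercile in every control library. Committed OPC markers had means of 1087 against 1048 CPM, but were lower in the upper tercile of control replicate 4. The part of such markers' cell types in the differences was not tested.

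The difference was -1.34 ± 0.18 for Pcdh7 (adjusted p = 0.00108) and -0.99 ± 0.15 for Pcdh15 (0.00341), where 1.58% of 11265 genes were called. Without control replicate 3, that of Pcdh15 was -0.95 (0.0600). Pcdh17 (-0.23), Pcdh10 (-0.07) and Pcdh9 (0.03) were not called. The libraries labelled cKO gave -1.03 (0.00497) for Pcdh7 and -0.81 (0.00176) for Pcdh15. The score's terciles had median depths of 2339 to 3019 UMIs (lower) and 2034 to 3046 UMIs (upper) in the control libraries. When every nucleus was first thinned to 1000 UMIs the differences were -0.73 (0.399) and -0.56 (0.704), and, with the library as a block, -0.72 (0.0228) and -0.55 (0.000428).

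Control OLs with at least 1 Piezo2 UMI (Piezo2+) were compared with those with none (Piezo2-). Pcdh7 was at 56.1, 52.4, 49.1 and 57.1 CPM in Piezo2- OLs and at 31.6, 39.2, 34.1 and 42.2 CPM in Piezo2+ OLs of the same libraries. Pcdh15 was at 225, 156, 172 and 182 CPM and at 149, 101, 132 and 107 CPM. Both genes were lower in Piezo2+ OLs in 4 of 4 libraries, and neither gene's groups overlapped. Fibroblast markers (means of 271 against 315 CPM) and astrocyte markers (493 against 570 CPM) were lower there too in 4 of 4 libraries. Neuron markers (87.7 against 77.3 CPM) and committed OPC markers (1119 against 1012 CPM) were higher in 4 of 4 libraries. Their part in the differences was not tested.

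Without a block, 0.633% of 12315 genes were called (78 genes, 994 at an unadjusted p under 0.05) and no member was by edgeR or DESeq2, with Pcdh7 at -0.53 ± 0.12 (adjusted p = 0.0894) and Pcdh15 at -0.58 ± 0.16 (0.174). With the library as a block, which the shared animals of a library justify, both were called (Pcdh7 -0.56, adjusted p = 8.87e-07, and Pcdh15 -0.57, 2.76e-20). The fit with the block called 390 genes in all. The study reports Pcdh15 as reduced in Piezo2+ OLs of its control ONs, a call that the main fit here did not give. Pcdh9 (0.16), Pcdh17 (-0.01) and Pcdh10 (-0.04) differed little in the fit without the block. A nucleus with more UMIs is more likely to have a Piezo2 UMI, and the median was 1898 to 2707 UMIs in Piezo2- and 2630 to 3432 UMIs in Piezo2+ OLs. After thinning, with the block, Pcdh7 was at -0.87 (0.00222) and Pcdh15 at -0.43 (0.00571), the second under the 0.5 needed for a call.

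**Figure D4:**
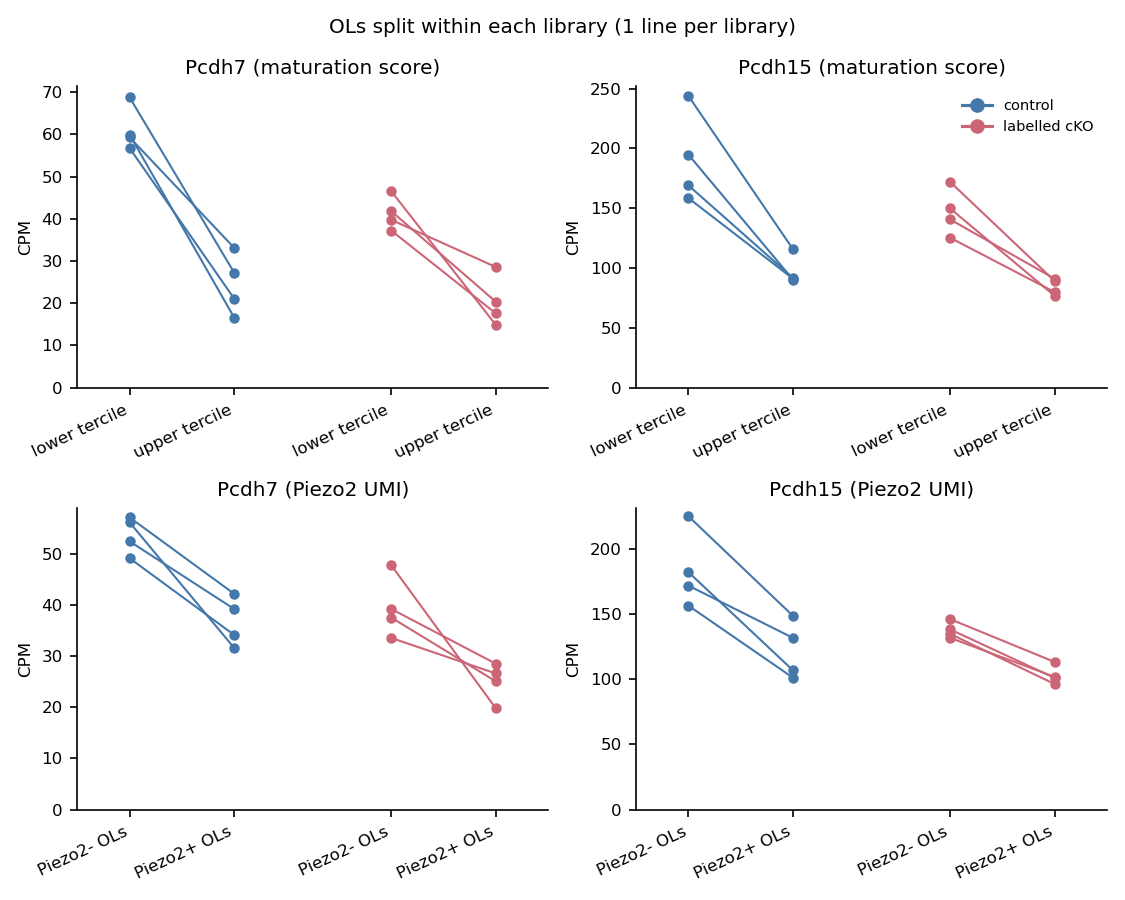
Pcdh7 and Pcdh15 (CPM) in OLs by terciles of the maturation score (upper panels) and by presence of a Piezo2 UMI (lower panels), with each line joining the sums of 1 library, control on the left and labelled cKO on the right of each panel. Every line falls from the lower to the upper tercile and from Piezo2- to Piezo2+ OLs.

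Fibroblasts fell into subclusters with and without Pcdh7. Subcluster 2, led by Kctd8, Kcnq5 and Dok6, had 2994 ± 493 CPM (n = 8) and subcluster 3, led by Fmo2, Synpr and Ntng1, had 2680 ± 431 CPM (n = 8), with 1551 ± 612 CPM (n = 5) and 1231 ± 385 CPM (n = 3) in subclusters 8 and 9. Subcluster 9 was led by the immune genes Inpp5d, Dock2 and Dock8, and subcluster 8 had 6971 CPM of OL markers against 2606 CPM in subcluster 2 and 2391 CPM in subcluster 3 (2097 to 8836 CPM over the other 9). The part of other cell types in these Pcdh7 levels was not tested. All other fibroblast subclusters had means of 16.9 to 74.0 CPM, in the range of the empty droplets or below it. Piezo2 had means of 769, 1055, 553 and 346 CPM in these 4 subclusters and of 52.2 to 283 CPM in the others, where the highest came from subcluster 7. Clustering used neither gene.

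Astrocyte subcluster 9, led by Gpc5, Kcnd2 and Adgrb3, had the highest means among astrocyte subclusters for Pcdh10, at 118 ± 37.4 CPM, and Pcdh17, at 83.0 ± 47.7 CPM (n = 8 each). The other astrocyte subclusters had Pcdh17 means of 2.65 to 39.1 CPM and Pcdh10 means of 1.86 to 77.8 CPM, both highest in subcluster 11, whose OL markers summed to 9783 CPM. Pcdh7 was at 494 ± 110 CPM in subcluster 9 and at 271 ± 30.5 CPM in subcluster 0 (n = 8 each). Pcdh15 stayed low there, at 5.59 ± 10.0 CPM. Neuron markers summed to 90.0 CPM in subcluster 9 against 13.9 to 53.7 CPM in the other astrocyte subclusters, and their part in the 2 levels was not tested.

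Between genotypes, 1 of the members passed the test in 1 cell type: OLs labelled cKO had less Pcdh7. It was at 40.7, 44.3, 40.2 and 46.4 CPM in control OLs (42.9 ± 2.96 CPM, mean ± SD) and at 28.7, 28.6, 26.6 and 32.2 CPM in OLs labelled cKO (29.0 ± 2.35 CPM), and the groups did not overlap. The log2 fold change was -0.58 ± 0.10 (edgeR adjusted p = 0.0450), where 18 of 14432 genes (0.125%) were called, and DESeq2 gave -0.59 (0.000381). The adjusted p was above 0.05 in 7 of the 8 fits that left out 1 library (0.0753 to 0.238, fold changes -0.54 to -0.61), and it was 0.0461 without cKO replicate 13. Without the subcluster that carried pituitary genes the difference was -0.71 (0.0280). In sums of nuclei, fewer cells with a gene and less RNA of it per cell cannot be told apart. A Pcdh7 UMI was found in 7.72 ± 1.16% of control OL nuclei and 5.86 ± 0.605% of those labelled cKO (n = 4 each). After thinning the shares were 3.42 ± 0.131% and 2.14 ± 0.379%. No test was made on these shares.

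**Figure D5:**
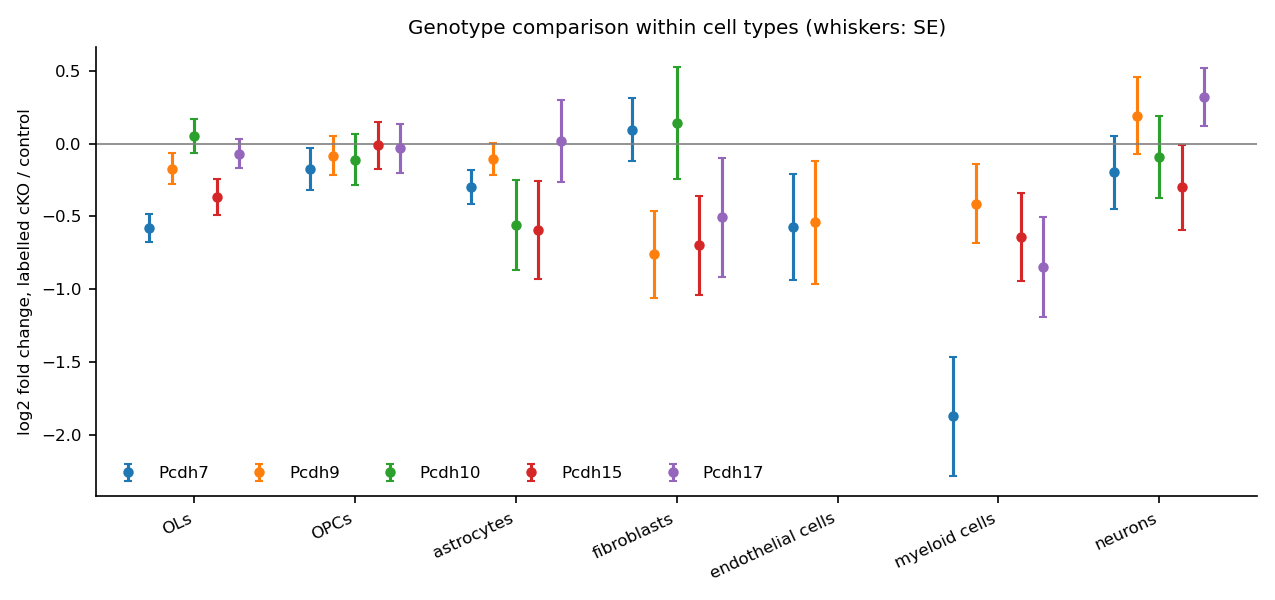
Log2 fold change between the libraries labelled cKO and control of the 5 protocadherins in 7 cell types, with points for the edgeR estimate, whiskers for its SE and genes that were not tested left out. Pcdh7 in OLs, at -0.58, is the 1 estimate called, and Pcdh7 in myeloid cells, at -1.87, lies farthest from 0 and was not.

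Empty droplets held 56.1 to 101 CPM of Pcdh7 in control and 48.8 to 77.7 CPM in the libraries labelled cKO, more than the OLs themselves. With the estimated free RNA subtracted, the level was 35.0 ± 4.64 CPM in control OLs and in OLs labelled cKO 19.0 ± 3.17 CPM (n = 4 each), a log2 fold change of -0.89 that did not pass the test (0.125). After subtraction the control sums lay between 28.1 and 38.4 CPM and those labelled cKO between 15.1 and 22.3 CPM, without overlap.

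The difference was also seen within OLs 1, the subcluster that carried most of the OLs' Pcdh7. There, Pcdh7 was at 119, 134, 169 and 148 CPM in control and, in the libraries labelled cKO, at 99.1, 96.4, 103 and 86.3 CPM, without overlap. OLs 1 made up 28.3, 24.0, 10.6 and 24.0% of control OLs and 19.3, 19.4, 19.4 and 19.1% of those labelled cKO, where control replicate 3 was the lowest. Leaving out the subcluster with pituitary genes, which took 54.1% of OLs in that library, the shares were 28.4, 24.4, 23.1 and 25.1% in control. In the libraries labelled cKO they were 19.3, 19.5, 19.4 and 19.2%, without overlap. This step was added after the data were seen, and a share also depends on the size of the other subclusters. On the same base, OLs 2 made up 27.8 and 39.1% in cKO replicates 11 and 13. It made up 8.97 and 10.6% in cKO replicates 10 and 12 and 6.12 to 16.4% in control. Shares of OLs 1 with OLs 2 left out were not examined, so a smaller share of OLs 1 is shown for this base alone. The part of the OLs 1 share in the Pcdh7 difference was not tested. In OLs 4, with the next highest mean, Pcdh7 was at 32.4, 28.2, 58.5 and 36.5 CPM in control against 20.7, 24.1, 13.0 and 22.7 CPM. No test was made within subclusters.

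The other members did not pass in OLs. Pcdh15 was at 177, 122, 148 and 128 CPM in control and, in the libraries labelled cKO, at 108, 112, 121 and 112 CPM (-0.37, adjusted p = 0.442), and every control value was higher. In OLs labelled cKO, Pcdh9 was at 9748, 9656, 10994 and 10380 CPM (-0.17, 0.652) and overlapped with control. Pcdh10 (0.05) and Pcdh17 (-0.07) overlapped as well.

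In OPCs, where 0.0992% of 8063 genes were called, Pcdh7 was at -0.17 and Pcdh15 in the libraries labelled cKO lay within the control range. Pcdh20 gave 20 UMIs in control OPCs (11.5 CPM) and 44 UMIs in OPCs labelled cKO (21.7 CPM), with 10.8, 28.6, 31.8 and 13.6 CPM by library, which overlapped with control. In myeloid cells Pcdh7 was at 23.2, 66.7, 121 and 55.8 CPM in control and, in the libraries labelled cKO, at 11.9, 21.0, 15.6 and 25.6 CPM, with 1 control library in the range of the others. That difference of -1.87 ± 0.41 did not pass (adjusted p = 0.468, unadjusted 0.000278) but did without control replicate 1 (-2.17, 0.0269) and with no filter on low counts (-1.88, 8.81e-08). All 4 cKO values lay under the 48.8 to 77.7 CPM of the empty droplets in those libraries, so they cannot be told from background. With the estimated free RNA subtracted, 0.540 ± 1.08 CPM remained there against 59.2 ± 46.1 CPM in control (n = 4 each). Control replicate 3, the highest, had 2560 CPM of fibroblast markers in its myeloid sum against 472 to 823 CPM in the other controls, and without it the difference was -1.29 (0.802). In the libraries labelled cKO these markers lay between 542 and 2775 CPM. Their part in the difference was not tested.

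No gene was called by edgeR in astrocytes, endothelial cells, fibroblasts, myeloid cells or neurons. In that order, 1020 of 14378, 194 of 4105, 618 of 12995, 426 of 8296 and 301 of 6013 genes had an unadjusted p under 0.05. No member was called by DESeq2 in any of these types. Fibroblast Pcdh9 was at 1544 ± 480 CPM in control and 918 ± 382 CPM in the libraries labelled cKO (-0.76, adjusted p = 0.995), with OL markers at 2754 to 5159 CPM over all fibroblast sums. Astrocyte Pcdh7 was at 295, 258, 355 and 268 CPM in control and at 229, 228, 260 and 241 CPM (-0.30, 0.666), with an overlap of 1 library.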

How the data were processed

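Nuclei of 8 ON libraries (10x 3′ v3.1) were sequenced, and the deposited UMI counts of every barcode were made by the authors with Cell Ranger 7.0.0 on GRCm39, per the labels, though the headers of the matrices name Cell Ranger 4. The settings for introns and strand are not given in the sources used here. Introns of long genes and reads of overlapping genes can therefore move a level. Droplets were called by rank and by difference from empty droplets, nuclei with under 200 genes or over 5% mitochondrial UMIs, or beyond 5 median absolute deviations, were removed, and likely doublets were removed by simulated-doublet score at 0.8% per 1000 nuclei. Libraries shared at most 11 barcodes (0.303%). Clusters (scanpy 1.11.5, Leiden resolution 3) were formed without the 8 genes, Piezo1, Piezo2, Olig2 and Cspg4 and named from markers, so names are rebuilt and not the study's. Unmapped columns numbered 0.

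UMIs of the nuclei of each type were added up within each library (at least 10 nuclei and 1000 UMIs) and fitted over all genes with edgeR 4.0.16 (quasi-likelihood, TMM, filterByExpr, two-sided, Benjamini-Hochberg). A call needed an adjusted p under 0.05 and a log2 fold change over 0.5 in size, the study's thresholds. Cell types (8), the maturation score and Piezo2 presence were tested in control libraries, the lineage in all libraries with genotype as a covariate, and genotype within 7 cell types. Limits at 3 counts cover counting error only, while the SD and SE include the spread between libraries. The fit was tested on simulated data. DESeq2 1.42.0, no filter, nuclei with at least 1000 UMIs, free RNA subtracted, thinning, a library block and leaving out each library were the alternatives, and the cKO libraries alone, thinning with a block and OLs without the pituitary subcluster were added after the data were seen. Sums of 1 library come from the same animals, and same-numbered sums deviated together (r = 0.152 to 0.469 for every pair). Both nerves of an animal went into 1 pool, per the study's methods, so libraries hold different animals. For genotype, p-values measure the spread between pools. The main fits of cell types, lineage, score and Piezo2 presence used no block, so they treated sums of 1 library as independent. The members, markers and lists were chosen with earlier results of these data known. Named genes were the 8 members, Piezo2 and Olig2, and up to 4 genes per list with the smallest adjusted p. Genes named otherwise are leading genes of subclusters, nearest genes by r and genes that overlap a member or its window. Promoter windows came from the GRCm39 sequence and GENCODE release 39 starts.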

Additional observations from a re-analysis of the deposited data

Results flagged for a closer look

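Among 69 groups of 4 libraries with a mean of at least 20 CPM of a member, 1 held a library far from the others. In neurons of the libraries labelled cKO, Pcdh15 was at 394 CPM in replicate 12 against 1006, 1042 and 1059 CPM in the other 3, a gap of 0.920 of the whole range where 0.829 is the limit for 4 samples. That sum rests on 19 neuron nuclei. Chance alone gives about 1 such library in 20 groups.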

How the results depend on the processing

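Of 1063 values of the members under an alternative, 1028 kept their side of the threshold, 18 passed it newly and 17 lost it. Of the values called in the main fit or the alternative, 0 turned in direction. Turns between values that were called in neither were not counted apart. Members called numbered 2 for the maturation score, 0 when thinned and 1 to 2 without 1 library, and 0 for Piezo2 presence, but 2 with the replicate block, 1 with thinning and block, 1 in the cKO libraries with the block and 1 with no filter. For genotype 1 was called, 3 with no filter, 0 with free RNA subtracted and 0 to 1 without 1 library. Thinned shares of nuclei with a UMI were 99.7% (Pcdh9 in OLs), 87.6% (Pcdh15 in OPCs), 59.1% (Pcdh7 in OPCs) and 3.42% (Pcdh7 in OLs). Apart from thinning, which leaves fewer counts, and left-out libraries, which leave fewer samples, the cause was not tested. The block otherwise changed 1 member call, Pcdh17 in myeloid cells (-0.61, adjusted p = 0.0495). No paired analysis was possible for genotype because the groups share no replicate numbers.

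Counts of genes called also moved by over 1.5 times. Cell types gave 4896 in astrocytes (7472 with DESeq2, 7546 with no filter), 5068 in OLs (8783 with DESeq2) and 1262 in T cells (682 to 839 without control replicate 2, 3 or 4). The higher and lower calls in OLs went from 2756 and 2312 to 2237 and 6546 with DESeq2, and in T cells from 493 and 769 to 967 and 248. The lineage gave 2071 for committed OPCs against OPCs (1039 in control libraries), 3082 for OLs against committed OPCs (1637 in control libraries, 5201 with DESeq2, split 1528 and 3673) and 4137 for OLs against OPCs (7363 with DESeq2, split 2377 and 4986, and 8478 with no filter). The score gave 178 (433 with the block, 291 with no filter, 17 thinned, 53 to 74 without control replicate 2, 3 or 4) and Piezo2 presence 78 (390 with the block, 187 with no filter, 8 thinned, 2 to 31 without 1 library). Genotype gave 18 in OLs (63 with DESeq2, 52 with no filter, 10 with free RNA subtracted, 10 to 11 without cKO replicate 11 or 12) and 8 in OPCs (50 with no filter, 1 with free RNA subtracted, 1 to 5 without 1 of 6 libraries). Of the types with 0, astrocytes gave 6 with DESeq2 and 22 with no filter, and endothelial cells, fibroblasts, myeloid cells and neurons 44, 63, 44 and 61 with no filter, with 1 in neurons with DESeq2.

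Depth limits Pcdh8, Pcdh18 and Pcdh20, and each committed OPC sum rests on 12 to 31 nuclei.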
